A study of Mus musculus with 12 samples.

Results

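The genes described here encode the subunits of the Mediator complex and of the general transcription factors of RNA polymerase II. They were taken by name from the deposited count table: every gene named Med plus a number (with or without a final l), Taf plus a number, or Gtf2 followed by a, b, e, f or h. This gave 56 of the 24421 genes in the table: 30 Mediator subunits, 12 TBP-associated factors of TFIID, 13 Gtf2 genes and Taf15. Taf15 fits the name but belongs to a family of RNA-binding proteins. Taf4 is listed in the table as Taf4a, fell outside the name rule and is given with the partner genes. A filter on low counts kept 55 members for testing and left out Gtf2a1l, a germline relative of Gtf2a1.

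The general transcription factors assemble with RNA polymerase II at a gene's start. TFIID, made of the TATA-binding protein TBP and its TAFs, binds the promoter, TFIIA and TFIIB steady it and bring in the polymerase, TFIIF arrives with the polymerase, and TFIIE and TFIIH then open the DNA. Mediator carries the signal from activators at enhancers to this machinery through head, middle and tail modules on a scaffold, and its detachable kinase module regulates that contact. Embryonic stem cells are known to be sensitive to loss of several of these subunits.

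The cells were E14 mouse embryonic stem cells, all of which carried dCas_Alkbh5, a fusion of a dCas protein to Alkbh5, an m6A demethylase of RNA. They were kept on gelatin with serum and LIF and received a guide plasmid. Selection took 3 days in 8 µg/mL blasticidin, and 200 nM INK128, an mTOR inhibitor that puts such cells into a paused state, followed for 5 days. Of the 12 polyA libraries, 4 come from cells with a control guide (NT), 4 from Mycn-gRNA2 and 4 from Mycn-gRNA3, the latter pair being guides named for Mycn, a MYC-family transcription factor. Every group had the fusion, the selection and the inhibitor, and no group of unpaused cells or of cells without the fusion is part of this comparison. The labels give 1 cell line and do not say whether replicates were separate cultures, so p-values rest on the variation among the 12 samples alone, and that variation may be technical.

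Each library held 17248564 to 33819855 reads on mouse genes, and 1.04% to 1.61% of reads fell on ERCC RNAs, synthetic RNAs added in a fixed amount to RNA from equal numbers of cells. Levels are given on 2 scales: CPM, read counts scaled to a common library size with TMM factors, which are relative to the transcriptome, and reads per 1000 ERCC reads. Mycn, the check of the target, averaged 141 ± 4.17 CPM for NT (SD, n = 4 here and for each group below), 236 ± 26.7 for Mycn-gRNA2 and 276 ± 16.7 for Mycn-gRNA3, and its 8 guide libraries were all above its NT libraries. As a check of the cell type, 4 general pluripotency markers, among them Pou5f1 and Sox2, summed to 2460 to 2800 CPM in NT, 1790 to 2490 CPM for Mycn-gRNA2 and 2480 to 2570 CPM for Mycn-gRNA3. Several marker lists differed between the NT and guide libraries. The 4 Y-linked genes measured summed to 0.0448 to 0.181 CPM in NT, where 1 to 3 of them were at 0, against 32.4 to 83.7 CPM for Mycn-gRNA2 and 46.1 to 63.5 CPM for Mycn-gRNA3. Calls for both guides, here and below, are for the average of the Mycn-gRNA2 and Mycn-gRNA3 groups against NT. They are made at an edgeR adjusted p under 0.05. Relative to the transcriptome, 8 of 10 primitive endoderm markers rose with both guides, 7 with Mycn-gRNA2 alone and 8 with Mycn-gRNA3 alone. Their sum went from 213 to 286 CPM in NT to 349 to 429 and 373 to 409 CPM with the guides. Of 8 naive pluripotency markers 6 fell with both guides and 5 with each guide alone. These summed to 3390 to 3520 CPM in NT and to 2350 to 2920 and 2260 to 3070 CPM with the guides. Of 7 tested fibroblast markers (9 in the list) 5 rose and 1 fell, with sums of 137 to 227 CPM in NT, 164 to 340 and 181 to 303 CPM, and 2 to 3 of the 9 were at 0 in NT. The Y-linked genes separated all NT libraries from all guide libraries. Any effect of that difference on the members cannot be told apart from one of the guides in this design. The part of the other marker differences in the members' changes was not tested.

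Mycn-gRNA2 replicate 1 stood apart among the members. It held the highest of the 12 values for 19 members and the lowest for 19, so 38 of 55 members had an extreme there, against 0 to 16 members in any other library. Its median distance from its own group's median was 0.26 on the log2 CPM scale, against 0.02 to 0.06 in the other 11 libraries. Taf9, a histone-fold TAF, shows the pattern, at 140 CPM there and 66.7 to 83 CPM in the other 11 libraries, and Med7, a middle subunit, was at 63.1 CPM against 35.2 to 41 CPM elsewhere.

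**Figure D1:**
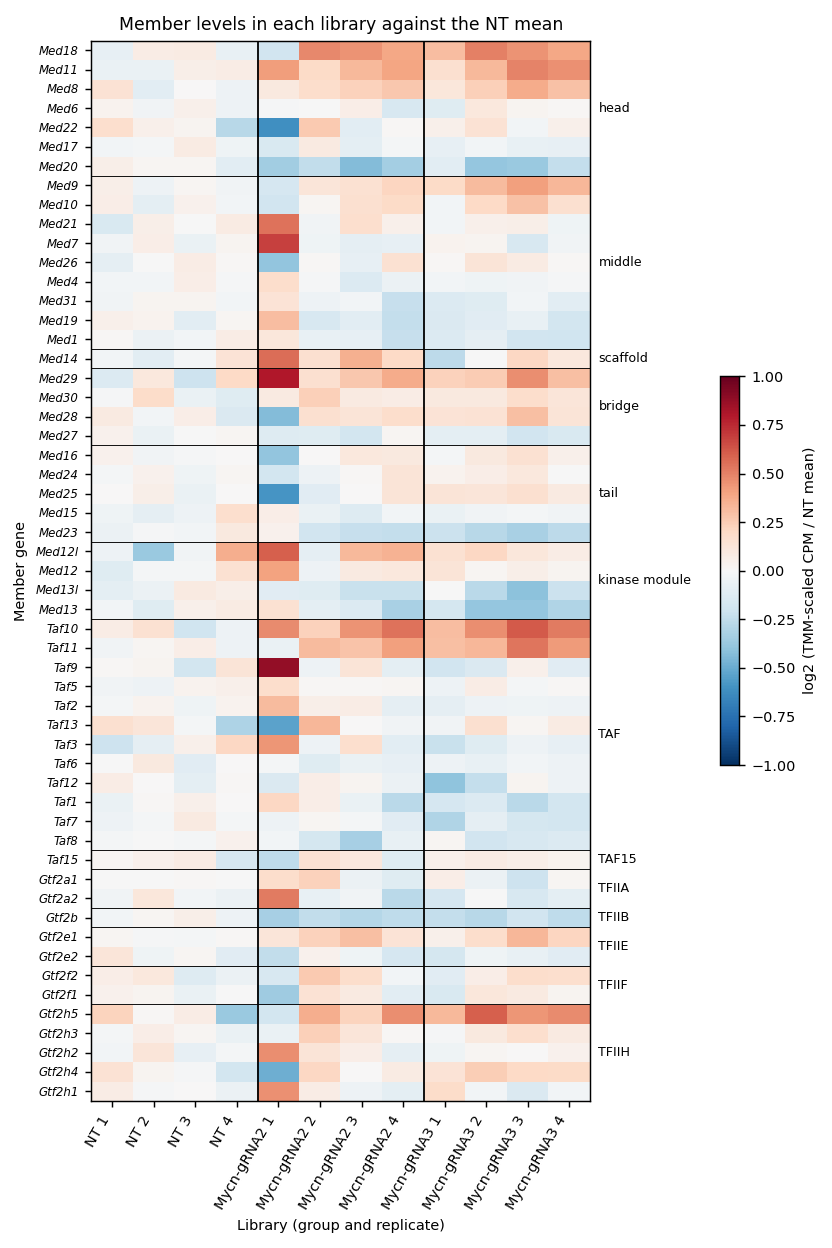
Each row is a tested member and each column a library, and the colour is the log2 ratio of its TMM-scaled CPM to the NT mean (red higher, blue lower), with rows grouped by module or factor. Taf10 and Med11 are red and Med20 and Gtf2b blue in every guide library, and Mycn-gRNA2 replicate 1 carries the strongest colours, with an extreme of the 12 values in 38 members.

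As a whole, the machinery's share of the transcriptome differed little between the groups. The tested and untested members together summed to 3350 ± 27.5 CPM for NT, 3380 ± 141 for Mycn-gRNA2 and 3260 ± 12.9 for Mycn-gRNA3 (SD, n = 4). Mediator summed to 1800 ± 46.5, 1770 ± 60.6 and 1720 ± 31.1 CPM in the same order, the TFIID TAFs to 744 ± 14.6, 776 ± 73.4 and 710 ± 15.8 CPM, and the Gtf2 genes to 638 ± 18.9, 661 ± 36.6 and 653 ± 10.4 CPM. The 4 Mycn-gRNA3 libraries lay between 3250 and 3280 CPM, all below the NT range of 3320 to 3380 CPM, whereas Mycn-gRNA2 spanned 3210 to 3550 CPM on both sides of it. The median log2 fold change of the 55 tested members with both guides was 0.02, and that of all 14497 genes tested was 0.00.

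Single subunits moved beneath that total. In the average of both Mycn guides against NT, relative to the transcriptome, 8 members rose (14.5% of 55) and 3 fell (5.45%). Calls were at an edgeR adjusted p under 0.05, and a call did not require each guide to pass alone. Of these members, Taf10, Med11, Med20 and Gtf2b also passed with each guide alone. The share of all tested genes that rose was 14.9% and the share that fell was 13%, so the count of risers was near the background and the count of fallers below it. The members' log2 fold changes ran from -0.31 to 0.46. Groups that did not overlap were seen for 3 members above NT in all 8 guide libraries (Med11, Taf10 and Gtf2e1), where 8.55% of all genes behaved so, and for 2 below it (Med20 and Gtf2b), where 6.87% did. The count of 11 rested on some of the libraries: it was 7 without NT replicate 3, 6 without NT replicate 4 and 19 without Mycn-gRNA2 replicate 1. Calls over all genes went from 4034 to 2929, 2935 and 6157 in the same order. Replicates 1 and 2 alone gave 0 calls and replicates 3 and 4 alone gave 22, as edgeR called 151 genes higher and 27 lower in the former and 3324 and 3061 in the latter.

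**Figure D2:**
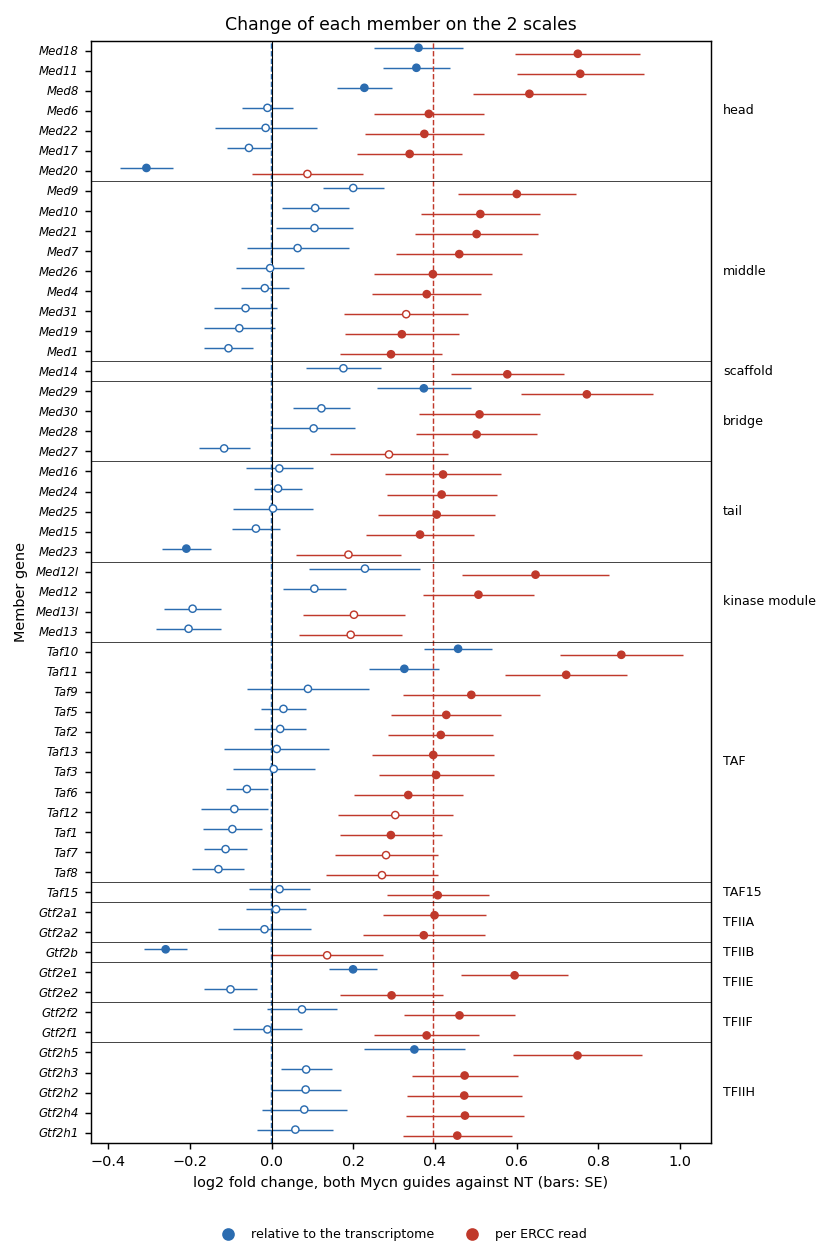
Points are log2 fold changes of each tested member with both Mycn guides against NT and bars are standard errors, in blue relative to the transcriptome and in red per ERCC read; filled points passed an edgeR adjusted p of 0.05 and dashed lines are the medians of all genes tested. Blue points scatter around 0 between -0.31 and 0.46, and all 55 red points lie to the right of 0.

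In the Mediator head, which contacts the polymerase and TFIIB, 3 of 7 subunits rose and 1 fell, beside 14.9% and 13% of all tested genes. Counts by module rest on few genes, and no module was tested as a set. Med11, a small core subunit of the head (chromosome 11, positions 70451931 to 70453726 of mm10), was at 10.6, 10.6, 11.6 and 11.7 CPM in NT replicates 1 to 4, 14.9, 12.7, 13.9 and 14.6 in those of Mycn-gRNA2, and 12.4, 13.9, 15.7 and 15.3 in those of Mycn-gRNA3. Every guide library was above every NT library. On the log2 scale it rose by 0.35 (SE 0.0823, edgeR adjusted p = 0.00588).

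Med18, Med20 and Med8 form the movable jaw of the head, and their RNAs did not move alike. Med18 (chromosome 4, 132458729 to 132463921) was at 16.4, 18.3, 18.4 and 16.5 CPM in NT replicates 1 to 4, 15.2, 24.3, 23.7 and 22.7 in those of Mycn-gRNA2, and 21.6, 24.7, 23.8 and 22.7 in those of Mycn-gRNA3. All guide libraries except Mycn-gRNA2 replicate 1 were above NT, and the rise was 0.36 (SE 0.108, edgeR adjusted p = 0.0235). The call was lost without NT replicate 1 or NT replicate 4.

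Med8 (chromosome 4, 118409337 to 118415824), which tethers Med18 and Med20 to the head, was at 35.9, 30.2, 32.5 and 31.4 CPM in NT replicates 1 to 4, 34.7, 36.8, 38.2 and 39.2 in those of Mycn-gRNA2, and 35.1, 38.4, 42.1 and 39.9 in those of Mycn-gRNA3. NT replicate 1 overlapped the lowest guide libraries. Med8 rose by 0.23 (SE 0.0675, edgeR adjusted p = 0.0223), a call that was lost without NT replicate 2, 3 or 4.

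Med20 (chromosome 17, 47611596 to 47624418), the partner of Med18 in the jaw, went the other way. It was at 40.6, 39.6, 39.5 and 36.3 CPM in NT replicates 1 to 4, 30.7, 32.9, 28.8 and 30.8 in those of Mycn-gRNA2, and 36.3, 29.8, 30.1 and 33 in those of Mycn-gRNA3. The guide libraries lay below NT, Mycn-gRNA3 replicate 1 by less than the rounding of these values. Med20 fell by 0.31 (SE 0.0659, edgeR adjusted p = 0.00378). Med6, Med17 and Med22, the other head subunits, had log2 fold changes of -0.01, -0.06 and -0.01 and did not pass the test.

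The windows before the start of 2 members that rose and of Med20 are examples of members whose groups did not overlap. Gtf2e1 and Gtf2b, which did not overlap either, are not shown. Taf8 and Taf13, whose changes did not pass the test, are examples of windows that hold the motifs searched. All of these windows come from RefSeq on GRCm38.p6 and read 5′ to 3′ on the gene's strand. Each is from up to 250 bases before an annotated start and cut where an annotated exon begins. Capitals mark CACGTG, the E-box that MYC family proteins are known to bind, or TATAAA, the TATA box, searched on both strands. The windows are chr7:105744362-105744588 (minus) for Taf10, chr11:70451668-70451917 (plus) for Med11, chr17:47611493-47611581 (plus) for Med20, chr17:47502293-47502541 (minus) for Taf8 and chr3:108571449-108571697 (plus) for Taf13.
Taf10: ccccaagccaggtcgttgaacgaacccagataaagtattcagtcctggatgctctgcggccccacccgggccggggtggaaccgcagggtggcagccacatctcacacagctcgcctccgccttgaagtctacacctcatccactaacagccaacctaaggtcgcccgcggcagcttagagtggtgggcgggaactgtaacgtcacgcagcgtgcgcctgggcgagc
Med11: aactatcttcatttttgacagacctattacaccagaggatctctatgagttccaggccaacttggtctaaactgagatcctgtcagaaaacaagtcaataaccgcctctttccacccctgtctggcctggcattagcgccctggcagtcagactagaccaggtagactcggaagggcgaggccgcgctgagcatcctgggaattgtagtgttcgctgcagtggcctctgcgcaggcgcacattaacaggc
Med20: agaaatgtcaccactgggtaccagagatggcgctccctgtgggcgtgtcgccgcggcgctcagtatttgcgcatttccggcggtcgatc
Taf8: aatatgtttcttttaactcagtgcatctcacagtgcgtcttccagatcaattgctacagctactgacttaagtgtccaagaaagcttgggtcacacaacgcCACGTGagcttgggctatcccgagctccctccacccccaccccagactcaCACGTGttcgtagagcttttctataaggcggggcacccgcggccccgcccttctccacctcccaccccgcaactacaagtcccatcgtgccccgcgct
Taf13: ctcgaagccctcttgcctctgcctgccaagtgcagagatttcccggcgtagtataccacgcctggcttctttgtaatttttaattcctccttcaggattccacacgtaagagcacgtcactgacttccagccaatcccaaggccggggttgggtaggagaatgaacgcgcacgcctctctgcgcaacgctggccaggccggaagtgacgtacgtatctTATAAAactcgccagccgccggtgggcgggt
RefSeq windows of 300 bases were matched for 49 of 56 members, and Gtf2e2, Med23, Med24, Med30, Med8, Taf2 and Taf7 had none. An E-box lay in 9 of the 49 (18.4%), namely Gtf2a1, Gtf2f1, Gtf2h1, Gtf2h5, Med17, Med28, Med31, Taf12 and Taf8, against 11.7% of the 10842 tested genes with a window. By window, 17.2% of 58 member windows and 7.15% of all 32851 windows held it. The letters of a TATA box also lay in 9 of the 49 (18.4%), against 8.75% of tested genes (by window, 15.5% of the members' and 13.6% of all). Taf13 has them 32 bases before its start, and the other members from 61 (Med28) to 246 (Taf5) bases before theirs. By their letters the motifs cannot overlap each other, and Gtf2f1 and Med28 held both.

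Changes of members with and without the E-box are given side by side, without a test. The 9 with it had a median log2 fold change of -0.01 relative to the transcriptome, with 1 riser (Gtf2h5) and no faller, and the 39 tested members whose window lacked it had a median of 0.02, with 6 risers and 2 fallers. Over all tested genes the medians were 0.00 for the 1265 with an E-box and 0.00 for the 9577 without, with 163 higher and 165 lower calls among the former and 1464 and 1212 among the latter. A match is a description of these letters and says nothing of binding, which was not measured.

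The middle module, which hinges the complex, held 9 members and none passed the test with both guides. Their log2 fold changes ran from -0.11 to 0.20, the highest being Med9, a small middle subunit, at 0.20 (SE 0.0748, edgeR adjusted p = 0.0611). Med14, the scaffold that joins the modules, was at 71.4, 67.6, 71.8 and 80 CPM in NT replicates 1 to 4, 107, 81.4, 93 and 83.6 in those of Mycn-gRNA2, and 60.7, 72.6, 84.1 and 78.3 in those of Mycn-gRNA3. All Mycn-gRNA2 libraries were above NT and the Mycn-gRNA3 libraries straddled it.

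Of 4 bridging subunits, Med29 rose, beside 14.9% of all tested genes. Med29 (chromosome 7, 28385247 to 28392690) was at 18.4, 21.7, 17.5 and 23.1 CPM in NT replicates 1 to 4, 35.2, 22.6, 24.3 and 26.1 in those of Mycn-gRNA2, and 23.7, 24.1, 27.8 and 24.9 in those of Mycn-gRNA3. NT replicate 4 overlapped Mycn-gRNA2 replicate 2, and Mycn-gRNA2 replicate 1 was the highest library. The rise was 0.37 (SE 0.115, edgeR adjusted p = 0.0266), and the call was lost without NT replicate 1, NT replicate 3 or Mycn-gRNA3 replicate 3. Without Mycn-gRNA2 replicate 1 it stood at 0.30 (edgeR adjusted p = 0.008).

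In the tail, where many activators dock, 1 of 5 subunits fell, beside 13% of all tested genes. Med23 (chromosome 10, 24869986 to 24913529), a target of signal-dependent activators, was at 96.9, 99.8, 98.7 and 108 CPM in NT replicates 1 to 4, 104, 88.3, 86 and 85.6 in those of Mycn-gRNA2, and 86.8, 83.3, 80.7 and 84 in those of Mycn-gRNA3. Mycn-gRNA2 replicate 1 lay inside the NT range and the other 7 guide libraries below it. Med23 fell by 0.21 (SE 0.0602, edgeR adjusted p = 0.0191), and the call was lost without NT replicate 4. The other tail subunits, Med15, Med16, Med24 and Med25, lay between -0.04 and 0.02.

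None of the 4 kinase-module members passed the test with both guides. Med13, which links the kinase to the core, had a log2 fold change of -0.20 (edgeR adjusted p = 0.0695) and its paralog Med13l one of -0.19 (edgeR adjusted p = 0.0508). Med12, which activates the kinase, had 0.10 and its paralog Med12l 0.23 (edgeR adjusted p = 0.232). Per kilobase of exon, Med12l was at 0.65 ± 0.138 CPM in NT and Med12 at 12.9 ± 1.01, whereas Med13l, at 40 ± 2.48, was above Med13, at 12.4 ± 0.786 (SD, n = 4 each).

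**Figure D3:**
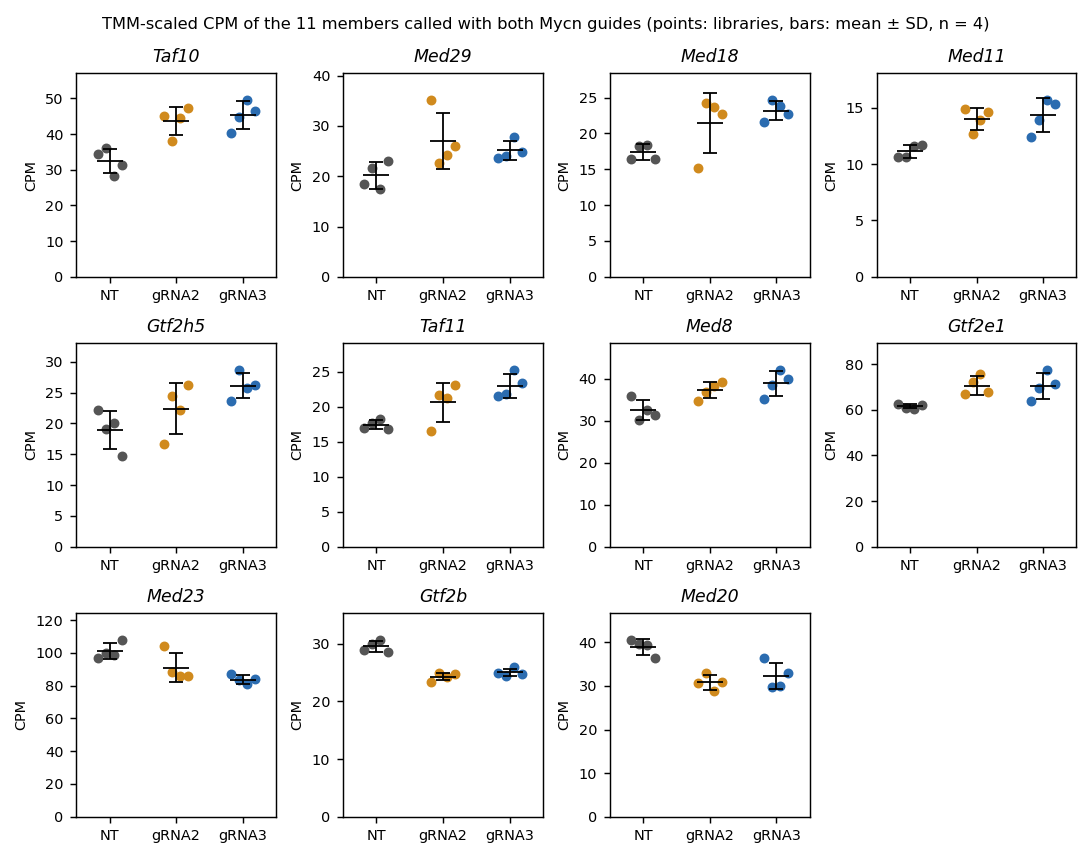
Points are the TMM-scaled CPM of single libraries, by group, for the 11 members that passed the test in the average of both guides against NT. Bars are the mean ± SD of 4 libraries, and each axis starts at 0. The guide libraries do not overlap NT for Taf10, Med11, Gtf2e1 and Gtf2b. For Med20, Mycn-gRNA3 replicate 1 and NT replicate 4 are both at 36.3 CPM after rounding. Mycn-gRNA2 replicate 1 lies apart from the other guide libraries for Med18, Taf11, Gtf2h5 and Med23, and above them for Med29.

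Among the TFIID TAFs, 2 of 12 rose and none fell, beside 14.9% and 13% of all tested genes. Taf10 (chromosome 7, 105742894 to 105744338), a histone-fold TAF that also belongs to the SAGA coactivator, was at 34.3, 36.1, 28.3 and 31.3 CPM in NT replicates 1 to 4, 45.1, 38.1, 44.4 and 47.3 in those of Mycn-gRNA2, and 40.3, 44.8, 49.6 and 46.5 in those of Mycn-gRNA3. All 8 guide libraries were above NT. It had the largest rise of the 55 members, 0.46 (SE 0.0826, edgeR adjusted p = 0.00122).

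Taf11 (chromosome 17, 27901128 to 27907724), which pairs with Taf13 and contacts TFIIA, was at 17, 17.7, 18.2 and 16.8 CPM in NT replicates 1 to 4, 16.6, 21.7, 21.2 and 23.1 in those of Mycn-gRNA2, and 21.5, 21.9, 25.3 and 23.4 in those of Mycn-gRNA3. Only Mycn-gRNA2 replicate 1 failed to exceed NT. The rise was 0.33 (SE 0.0856, edgeR adjusted p = 0.0119).

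The histone-fold partners of these TAFs did not pass the test. Taf8 and Taf3, the alternative partners of Taf10, had log2 fold changes of -0.13 (edgeR adjusted p = 0.147) and 0.01, and Taf13 had 0.01. Taf6 and Taf9, which pair with each other, had -0.06 and 0.09, and Taf12, the partner of Taf4, had -0.09. Taf1, the largest TAF, and Taf7, which binds it, had -0.10 and -0.11. The difference between a riser and its partner was not tested.

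Of the Gtf2 genes, Gtf2b fell and Gtf2e1 and Gtf2h5 rose. Gtf2b (chromosome 3, 142765247 to 142783605) encodes TFIIB, the single protein that positions the polymerase, and was at 28.9, 30, 30.7 and 28.5 CPM in NT replicates 1 to 4, 23.4, 24.9, 24.2 and 24.7 in those of Mycn-gRNA2, and 25, 24.4, 25.9 and 24.8 in those of Mycn-gRNA3. The groups did not overlap, and the fall was tight across libraries. It fell by 0.26 (SE 0.0519, edgeR adjusted p = 0.00239).

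Gtf2e1 (chromosome 16, 37509796 to 37539769), the large subunit of TFIIE, was at 62.4, 60.9, 60.5 and 61.9 CPM in NT replicates 1 to 4, 66.8, 72.1, 75.7 and 67.6 in those of Mycn-gRNA2, and 63.7, 69.5, 77.5 and 71.3 in those of Mycn-gRNA3. All guide libraries were above NT. Gtf2e1 rose by 0.20 (SE 0.0595, edgeR adjusted p = 0.0226), a call that was lost without NT replicate 2, 3 or 4. The small subunit Gtf2e2 had a log2 fold change of -0.10 (edgeR adjusted p = 0.266).

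Gtf2h5 (chromosome 17, 6079828 to 6085485), a very small subunit that stabilises TFIIH, was at 22.1, 19.1, 20 and 14.7 CPM in NT replicates 1 to 4, 16.7, 24.4, 22.1 and 26.2 in those of Mycn-gRNA2, and 23.7, 28.7, 25.8 and 26.3 in those of Mycn-gRNA3. The groups overlapped through NT replicate 1 and Mycn-gRNA2 replicate 1. Its rise of 0.35 (SE 0.123) was the weakest call, with an edgeR adjusted p of 0.0472, and leaving out any single library other than replicate 1 of a group (9 libraries) ended it, as did a term for the replicate number (edgeR adjusted p = 0.0589).

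The rest of the Gtf2 genes did not pass the test. The other 4 TFIIH members lay between 0.06 and 0.08, the TFIIF pair at -0.01 (Gtf2f1) and 0.07 (Gtf2f2), and the TFIIA genes at 0.01 (Gtf2a1) and -0.02 (Gtf2a2). Gtf2a1l, not tested, had 5, 5, 3 and 3 reads in NT replicates 1 to 4, 8, 3, 10 and 7 in those of Mycn-gRNA2, and 10, 9, 11 and 15 in those of Mycn-gRNA3. Taf15 averaged 170 ± 13 CPM for NT, 167 ± 21.7 for Mycn-gRNA2 and 177 ± 2.48 for Mycn-gRNA3 (SD, n = 4).

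Without Mycn-gRNA2 replicate 1, the library that stood apart, 19 members passed the test, 11 higher and 8 lower, and over all genes the calls rose from 2156 higher and 1878 lower to 3206 and 2951. The 11 members named above all passed, and Med9, Med28 and Gtf2a1l (then kept by the filter) were added above NT and Med1, Med13, Med13l, Med19 and Taf8 below it. Med13 then stood at -0.25 (edgeR adjusted p = 0.00327) and Med9 at 0.24 (edgeR adjusted p = 0.00334).

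The guides were also compared with NT one at a time, and since both comparisons use the same 4 NT libraries their calls are not independent. With Mycn-gRNA2, 4 members rose (7.27% of 55, against 10.1% of all genes) and 2 fell (3.64%, against 7.06%). The risers were Taf10 at 0.43, Med29 at 0.43, Med11 at 0.34 and Med14 at 0.33, and the fallers Med20 at -0.34 and Gtf2b at -0.28. The Med14 rise had an edgeR adjusted p of 0.048. The count of 6 became 3 without NT replicate 1, NT replicate 2 or Mycn-gRNA2 replicate 4, and 11 without Mycn-gRNA2 replicate 1. Calls over all genes went from 2485 to 1819, 1946, 1903 and 4114 in the same order.

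With Mycn-gRNA3, 8 members rose (14.5%, against 14.8% of all genes) and 5 fell (9.09%, against 12.2%). The risers were Taf10 at 0.48, Gtf2h5 at 0.46, Med18 at 0.42, Taf11 at 0.40, Med11 at 0.37, Med9 at 0.31, Med8 at 0.26 and Gtf2e1 at 0.20. The fallers were Med13 at -0.31, Med20 at -0.27, Med23 at -0.27, Gtf2b at -0.24 and Taf7 at -0.19. The count of 13 became 7 without NT replicate 4 or Mycn-gRNA3 replicate 2 and 5 without Mycn-gRNA3 replicate 3. It was 20 without Mycn-gRNA2 replicate 1, which shares the fit, or with only the compared groups in the fit. Calls over all genes went from 3919 to 2864, 3011, 2654, 6012 and 6040 in the same order.

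Between the guides, no member passed the test on either scale, where 0% of all genes were called relative to the transcriptome and 0.0069% per ERCC read. At an unadjusted p under 0.05, edgeR had 5 of 55 members relative to the transcriptome (9.09%, against 8.78% of all genes) and 4 per ERCC read (7.27%, against 11%). DESeq2 also called 0 and 0 after adjustment, with 8 and 4 members unadjusted, and limma-voom 0 and 0, with 5 and 6. The largest absolute log2 difference between the guides was 0.37 relative to the transcriptome and 0.40 per ERCC read. The 0 per ERCC read became 7 without Mycn-gRNA2 replicate 4, when 1983 of all genes were called higher and 5 lower. A term for the replicate number, fitted over all 12 libraries with NT included, left 0 calls, with 5 and 4 members unadjusted. The numbers were taken to pair only the Mycn-gRNA2 and Mycn-gRNA3 libraries, so this was not a paired test of the guides alone.

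Per ERCC read the whole machinery was higher with the guides. The members summed to 198, 246, 221 and 212 reads per 1000 ERCC reads in NT replicates 1 to 4, 295, 217, 274 and 308 in those of Mycn-gRNA2, and 311, 305, 309 and 267 in those of Mycn-gRNA3. Mycn-gRNA2 replicate 2 lay within the NT range and the other 7 guide libraries above it. With both guides against NT, 45 of 55 members rose (81.8%, against 56.4% of all genes) and none fell (against 0.931%). All 55 log2 fold changes were above 0, from 0.09 to 0.86. The count was 26 without NT replicate 1, and 1 with replicates 1 and 2 alone. Of all genes 8177 rose in the main fit, 5479 without NT replicate 1 and 1101 with replicates 1 and 2 alone.

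The members' median log2 fold change per ERCC read was 0.41, beside 0.39 for all genes, and the difference was not tested. Endogenous reads per ERCC read were 61.3 to 72.1 in NT, 65.6 to 95.6 with Mycn-gRNA2 and 83 to 94.5 with Mycn-gRNA3. The shares were also taken above a floor on level, without matching for level above it: 9426 genes had a mean log2 CPM over 3, among them 54 tested members. Of these genes 63.5% rose per ERCC read and 0.573% fell, and of the members 81.5% rose and none fell. Relative to the transcriptome 12.6% of these genes rose and 14.3% fell, and of the members 14.8% and 5.56%. In bulk RNA, fewer cells and less RNA per cell cannot be told apart, and the ERCC RNAs were added after extraction, so differences in cell number or RNA yield enter this scale and were not tested.

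Taf10 rose furthest on this scale too. It was at 2.05, 2.65, 1.86 and 1.96 reads per 1000 ERCC reads in NT replicates 1 to 4, 3.74, 2.43, 3.65 and 4.54 in those of Mycn-gRNA2, and 3.84, 4.18, 4.72 and 3.81 in those of Mycn-gRNA3, so only Mycn-gRNA2 replicate 2 overlapped NT. The rise was 0.86 (SE 0.15, edgeR adjusted p = 2.55e-05). Med29 followed at 0.77, Med11 at 0.76, Med18 and Gtf2h5 at 0.75 and Taf11 at 0.72.

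The 3 members that fell relative to the transcriptome did not change detectably per ERCC read. Med20 was at 2.42, 2.92, 2.6 and 2.28 reads per 1000 ERCC reads in NT replicates 1 to 4, 2.55, 2.1, 2.36 and 2.96 in those of Mycn-gRNA2, and 3.46, 2.77, 2.86 and 2.71 in those of Mycn-gRNA3, and the groups overlapped. Its log2 fold change was 0.09 (SE 0.135, edgeR adjusted p = 0.575), that of Gtf2b 0.14 (SE 0.138, edgeR adjusted p = 0.388) and that of Med23 0.19 (SE 0.129, edgeR adjusted p = 0.2). Med13, Med13l, Med27, Med31, Taf7, Taf8 and Taf12 were the other members that did not pass.

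All 8 guide libraries were above all 4 NT libraries per ERCC read for 6 members (Med8, Med11, Med14, Gtf2a1, Taf11 and Gtf2e1), as for 11.5% of all genes, and below for none (0.235%). With Mycn-gRNA2 alone 18 members rose (32.7%, against 26.3% of all genes) and with Mycn-gRNA3 alone 42 (76.4%, against 60.7%), and none fell with either (0.517% and 0.504% of all genes). The Mycn-gRNA2 count rested on single libraries and was 43 without Mycn-gRNA2 replicate 2. It was 6, 10, 9 and 7 without NT replicate 1, NT replicate 3, NT replicate 4 and Mycn-gRNA2 replicate 4. Higher calls over all genes moved likewise, from 3817 to 7849, 1813, 2419, 2231 and 1897 in the same order.

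The members' levels in paused NT cells differed widely per kilobase of exon. Taf15 was highest at 82.8 ± 6.35 CPM per kilobase and did not overlap Taf9, next at 57 ± 5.03, and Taf9 overlapped Gtf2f1 at 51 ± 1.72 (SD, n = 4 each). At the low end stood Med9 at 7.11 ± 0.246, Med28 at 5.57 ± 0.401 and Med12l at 0.65 ± 0.138, and each of these stood clear of the one below it, while Med27 at 7.14 ± 0.247 overlapped Med9. Most neighbours in between overlapped over their 4 libraries. The median was 15.6 for Mediator, 19 for the TFIID TAFs and 22 for the tested Gtf2 genes. The order was nearly the same with the guides, with a rank correlation over the 55 members of 0.976 between NT and Mycn-gRNA2 and 0.962 between NT and Mycn-gRNA3, given as a description of group means.

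**Figure D4:**
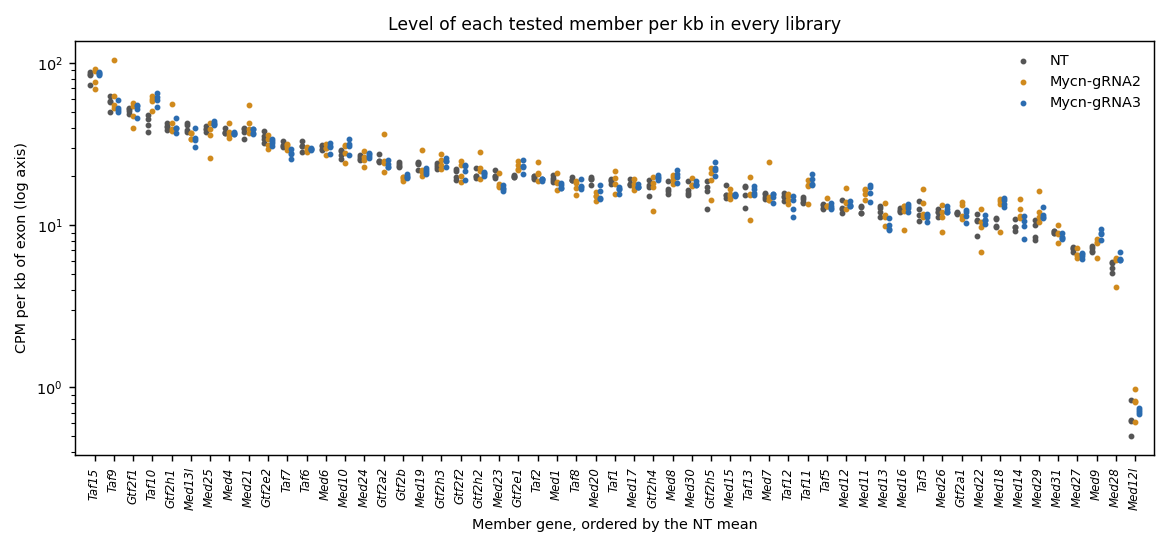
Points are TMM-scaled CPM per kilobase of summed exon length in single libraries, on a log axis, for the 55 tested members in order of their NT mean, coloured by group. Levels run from 82.8 for Taf15 to 0.65 for Med12l in the NT mean, and the order in the guide groups is close to it but not the same.

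Summed exon length was compared between the called members and the rest, without a test. The 8 members that rose had a median exon length of 1448.5 bases (757 to 3058), the 3 that fell 2040 (1252 to 4946) and the 44 others 2721.5 (780 to 11787), so the ranges overlapped. Over the 55 members the log2 fold change with both guides against log2 length had a Pearson correlation of -0.31 and a Spearman correlation of -0.28, and over all tested genes -0.03 and -0.10; the genes share the same libraries. With all genes in 5 length classes of about equal size, the median log2 fold change was 0.06 in the shortest class (up to 1605 bases) and -0.05 in the longest (from 4839 bases). Of the 16 members in the shortest class 4 rose and 1 fell, and of the 10 in the longest none rose and 1 fell. Over all genes 14.9% rose and 7.48% fell in the shortest class, and 14.1% and 18.9% in the longest. Library by library the pattern was uneven. The median log2 level of the 27 shorter members minus that of the 28 longer ones, each against its NT mean, ran from -0.07 to 0.05 in NT, and it was below 0 in Mycn-gRNA2 replicates 1 (-0.07) and 4 (-0.05) and Mycn-gRNA3 replicate 1 (-0.03) and 0.04 to 0.12 in the other 5 guide libraries. A fit with an offset for length, chosen after seeing the data, left all 11 calls in place.

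**Figure D5:**
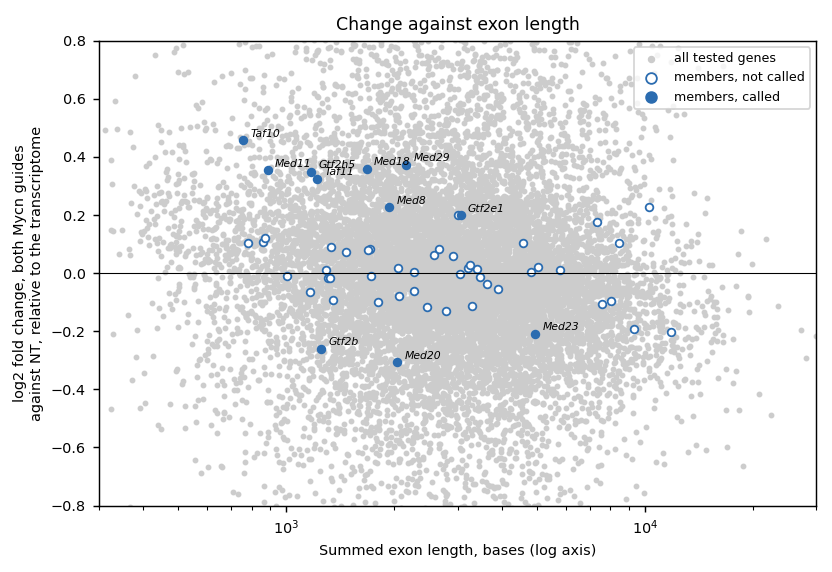
Summed exon length (log axis) is plotted against the log2 fold change with both Mycn guides relative to the transcriptome, for all tested genes (grey) and the members (blue, filled where called). Taf10, at 757 bases, is the shortest member and has the largest rise, and 1104 of the 14497 genes lie outside the axes.

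Exons of some members overlap other genes, and reads of an opposite-strand neighbour may be included, since the strand setting used for counting is not given here. Among the members that changed, Taf10 shares 4.23% of its exon length with Ilk on the opposite strand. The largest overlap was that of Med31 with 4930563E22Rik (39.2%), followed by Med12l with Igsf10 (16.4%), Taf9 with Ak6 on the same strand (14.7%) and Med19 with Zdhhc5 (14.4%).

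The 50 partner genes outside the name rule, of which 49 were tested, moved in both directions. Relative to the transcriptome 6 rose and 7 fell, with a median of 0.03, where 14.9% and 13% of all genes did, and per ERCC read 36 rose and 1 fell, where 56.4% and 0.931% of all genes did. Tbp itself, the core of TFIID, had a log2 fold change of -0.03, Taf4a -0.12 (edgeR adjusted p = 0.207) and its paralog Taf4b 0.05. Taf9b, the paralog of Taf9, had -0.35 (edgeR adjusted p = 0.173).

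Taf7l, a germ-cell paralog of Taf7, was the partner that fell on both scales. It was at 1.79 to 3.87 CPM in NT, 1.09 to 1.91 for Mycn-gRNA2 and 1.2 to 1.73 for Mycn-gRNA3, so the groups overlapped at a low level. It fell by 1.04 relative to the transcriptome (SE 0.194, edgeR adjusted p = 0.00153) and by 0.63 per ERCC read (edgeR adjusted p = 0.00833).

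Among the kinases and the polymerase genes, Cdk19, the alternative Mediator kinase, fell by 0.26 (edgeR adjusted p = 0.0236). Cdk7, the kinase of TFIIH, fell by 0.14 (edgeR adjusted p = 0.0226), and Cdk8 had 0.03. Of 13 polymerase II genes, Polr2a, the catalytic subunit, fell by 0.32 (SE 0.0571, edgeR adjusted p = 0.00121), and the small subunits Polr2l, Polr2h, Polr2e and Polr2j rose by 0.56, 0.28, 0.28 and 0.24. The other partners that passed were Dr1, a TBP repressor, at 0.16, Brf2, a polymerase III factor related to TFIIB, at 0.32, its relative Brf1 at -0.24, Taf1a of the polymerase I factor SL1 at -0.24 and Gtf2ird2 at -0.28.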

How the data were processed

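PolyA RNA was counted in 12 libraries. Raw read counts per gene were used as the authors deposited them. The submitters' processing notes list Trim Galore 0.4.0, featureCounts, Subread 1.5.0, edgeR 3.32.1 and build mm10. The aligner, the annotation and whether counting used strand remain not given in the sources used here. The authors' deposited log2 table covers 12042 genes and 55 members. Its values equal log2(count + 0.5) minus a constant per library, within 0.0015 of TMM factors over the ERCC RNAs, and served only in an alternative test.

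The test was edgeR 4.0.16 in R 4.3.3 (quasi-likelihood, robust, filterByExpr, all 12 libraries, a term per group), with Benjamini-Hochberg adjustment over 14497 genes and calls at 0.05. TMM factors gave levels relative to the transcriptome, and ERCC totals as library sizes gave levels per ERCC read. SE is the log2 fold change divided by the root of F. Exon lengths, gene coordinates and overlaps come from the deposited count table. GENCODE vM21 (GRCm38) exons were used, beside those of that table, only to cut the printed promoter windows. limma 3.58.1 and DESeq2 1.42.0 served as alternatives, and the procedure was tested on simulated data. Within-group pairs differed by more than sampling noise (chi-square per degree of freedom 8.68 to 73.3 over 18 pairs).

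Replicate numbers of the titles were taken as pairing only Mycn-gRNA2 with Mycn-gRNA3, where all 4 same-numbered pairs deviated together (correlation 0.171 to 0.642). Between the guides and NT only 4 of 8 such pairs were over 0.1. Pairs of Mycn-gRNA2 and Mycn-gRNA3 with unlike numbers ran from -0.645 to 0.475. The highest, Mycn-gRNA2 replicate 4 with Mycn-gRNA3 replicate 3, was above the pair of replicates 4 (0.171), so the pairing is not certain. Members and lists were chosen with earlier results of these data known. The text names members called with both guides by role, with values per library for these, the 3 highest and 3 lowest levels per kilobase, untested members and paralog pairs; Taf3, Taf13 and other partners of a named member were added after their values were seen.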

Additional observations from a re-analysis of the deposited data

Results flagged for a closer look

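A library far from the other 3 of its group by Dixon's test was found in 17 of 354 groups of 4 (55 tested members and 4 sums, in 3 groups, on 2 scales), and chance gives about 1 in 20. The groups share libraries and are not independent. Mycn-gRNA2 replicate 1 and Mycn-gRNA3 replicate 4 account for 4 each.

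In Mycn-gRNA2 replicate 1 the CPM of Med23 was 104 (85.6 to 88.3 in the other Mycn-gRNA2 libraries), that of Med7 63.1 (36.8 to 38.2), that of Taf5 47.9 (42.6 to 42.8) and that of Med28 18.9 (27.9 to 28.8). Mycn-gRNA2 replicate 2 had Med30 at 17 CPM (15.2 to 15.4). In Mycn-gRNA3 the CPM of Taf2 was 93.6 in replicate 1 (96.5 to 96.7), that of Med17 69.7 in replicate 2 (67.2 to 67.6) and that of Med28 31.3 in replicate 3 (27.8 to 28.1). In NT, Gtf2a2 was at 36.4 CPM in replicate 2 (32.4 to 33), and replicate 3 had Gtf2a1 at 69.5 (68.7 to 68.9) and Med17 at 75.4 (69.3 to 70.3).

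Per 1000 ERCC reads, Mycn-gRNA3 replicate 4 was low. All members summed to 267 there (305 to 311 in the other Mycn-gRNA3 libraries), the Gtf2 genes to 53.9 (60.8 to 62), Taf15 was at 14.2 (16.7 to 16.9) and Med17 at 5.51 (6.41 to 6.49). NT replicate 2 had Gtf2f1 at 6.57 (5.4 to 5.5) and Gtf2f2 at 2.41 (1.82 to 1.89).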

How the results depend on the processing

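With both guides relative to the transcriptome, 11 members were called, and 12 to 13 with DESeq2, DESeq2's size factors or limma-voom, 12 with no filter and 11 with a stricter one. None of these 11 reversed its direction in an alternative. Members that were not called did change sign: Med7 was at 0.06 and at -0.05 without Mycn-gRNA2 replicate 1, and Taf9 at 0.09 and -0.05. Replicates 1 and 2 alone gave 0 members for both guides, Mycn-gRNA2 and Mycn-gRNA3 relative to the transcriptome (151 genes higher and 27 lower with both guides), and per ERCC read 1, 0 and 8, with 1 between the guides. Replicates 3 and 4 alone gave 22, 14 and 21 relative to the transcriptome and, for Mycn-gRNA2 per ERCC read, 42. The difference between these sets of replicates was not tested; Taf10 was at 0.27 and 0.66 in them, Med11 at 0.36 and 0.36 and Gtf2b at -0.26 and -0.25.

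Leaving out 1 library gave 6 to 19 members for both guides (6 without NT replicate 4, 7 without NT replicate 3, 19 without Mycn-gRNA2 replicate 1), 3 to 11 for Mycn-gRNA2 (3 without NT replicate 1, NT replicate 2 or Mycn-gRNA2 replicate 4) and 5 to 20 for Mycn-gRNA3 (7 without NT replicate 4 or Mycn-gRNA3 replicate 2, 5 without Mycn-gRNA3 replicate 3). Per ERCC read it gave 26 to 54 (26 without NT replicate 1), 6 to 43 and 33 to 52. Between the guides it gave 0 to 7 (7 without Mycn-gRNA2 replicate 4). Calls over all genes changed too, as with both guides from 8177 to 5479 higher per ERCC read without NT replicate 1. The members' median with both guides ran from 0.01 to 0.04 relative to the transcriptome and from 0.37 to 0.49 per ERCC read. Fitting only the compared groups gave 20 members for Mycn-gRNA3. The causes were not tested.

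With the replicate number as a block, both guides gave 11 members relative to the transcriptome, 10 of them the same (Gtf2h5 lost, Med13 gained at an edgeR adjusted p of 0.0485), and 38 per ERCC read. The correlation of same-numbered libraries exceeded 0.1 in 8 of 12 pairs (-0.079 to 0.642), and pairs of unlike number ran from -0.645 to 0.475.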
